A study of Mus musculus with 20 samples.

Results

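A set of 8 ITAM signalling genes, out of 14456 listed by Ensembl identifier in the normalized count table, was followed in cultured mouse macrophages: Trem2, Tyrobp, Lyn, Syk, Plcg2, Rasgrp3, Cbl and Cblb. They were chosen by symbol, after mapping the identifiers with GENCODE M21, and the choice was made on readouts of these data, because Cblb and Rasgrp3 had been higher after exposure to high-glucose exosomes than in the controls. The cells were bone marrow-derived macrophages (BMDM), grown with M-CSF from male C57BL/6J mice of 8 to 12 weeks, and 5 groups of 4 total RNA libraries were compared. In the first experiment, BMDM spent 24 h in medium with 25 mM glucose (high glucose) or with 5.5 mM glucose and 19.5 mM mannitol as the osmotic control (normal glucose). In the second, naive BMDM were exposed for 24 h to PBS, to exosomes released by BMDM in normal glucose (BMDM–NG-exo), or to exosomes released by BMDM in high glucose (BMDM–HG-exo), each exosome sample coming from its own preparation. All 5 groups were wild-type cells outside the animal, and neither the labels nor the methods say how many mice gave the marrow of a library. The p-values therefore measure the spread between libraries, which may be partly technical.

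ITAMs are short tyrosine motifs in the tails of membrane adaptors that have little signalling capacity of their own until a partner receptor is engaged. In macrophages the receptor TREM2 pairs with the adaptor TYROBP (DAP12), Src family kinases such as LYN phosphorylate the motif, and the kinase SYK docks on it and becomes active. SYK signalling reaches the phospholipase PLCG2, which cleaves a membrane lipid into inositol trisphosphate, a calcium-releasing messenger, and diacylglycerol, which recruits RASGRP3, an exchange factor for Ras and Rap GTPases. CBL and CBLB are E3 ubiquitin ligases that tag activated receptors and kinases, SYK among them, and so act as brakes. LYN works on both sides, since it also phosphorylates the inhibitory motifs that recruit phosphatases.

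The reads recovered from the deposited values added up to between 34016445 and 56310712 per library (median 43311931), and the 8 genes had between 1828 and 32950 reads in each library. Mitochondrial genes took 7.45% to 9.48% of the reads. PBS library 1 stood apart in having 47 listed genes at 0, against 2 to 14 in the other 19 libraries. All 9 macrophage markers looked for (among them Adgre1, Csf1r, Lyz2 and Spi1) were listed, while none of the defining markers of T and NK cells, mast cells or erythroid cells was. Of the neutrophil markers 4 of 8 were listed, of the dendritic cell markers 1 of 6, of the B cell markers 1 of 6, of the stromal markers 4 of 5 and of the osteoclast markers 3 of 5, each list summing to at most 502 normalized counts in a library against at least 644513 for the macrophage list.

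All 8 genes are protein coding and lie on 7 chromosomes of GRCm38. Read per kilobase of exon, Tyrobp had the highest level, with a mean of 16522 normalized counts per kb over the 20 libraries. Trem2 (3172), Plcg2 (2948), Syk (2704) and Lyn (2579) followed with ranges that overlapped between neighbours, so that the order of neighbours is not settled by these libraries. The lowest Trem2 library (2924) was above the highest of Syk (2917) and of Lyn (2829). Cbl (966), Rasgrp3 (470) and Cblb (355) came last, and the ranges of the latter 2, 382 to 577 and 297 to 414 normalized counts per kb, overlapped. Per kb of exon the Rasgrp3 mean was the higher in all 5 groups, for example 405 against 327 normalized counts per kb after PBS. The exon union of Trem2 is 4946 bases against 1088 bases for its longest coding transcript, and on that length, a setting chosen after seeing the data, its level was 14421 normalized counts per kb and second to that of Tyrobp (19539). On the same length Syk stood at 4721, with no overlap with Plcg2 (2948) or Lyn (3033), and Cblb at 559 beside Rasgrp3 at 581. Across all 20 libraries the genes varied little: the highest value of a gene was 1.09 (Cbl) to 1.51 (Rasgrp3) times its lowest.

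**Figure D1:**
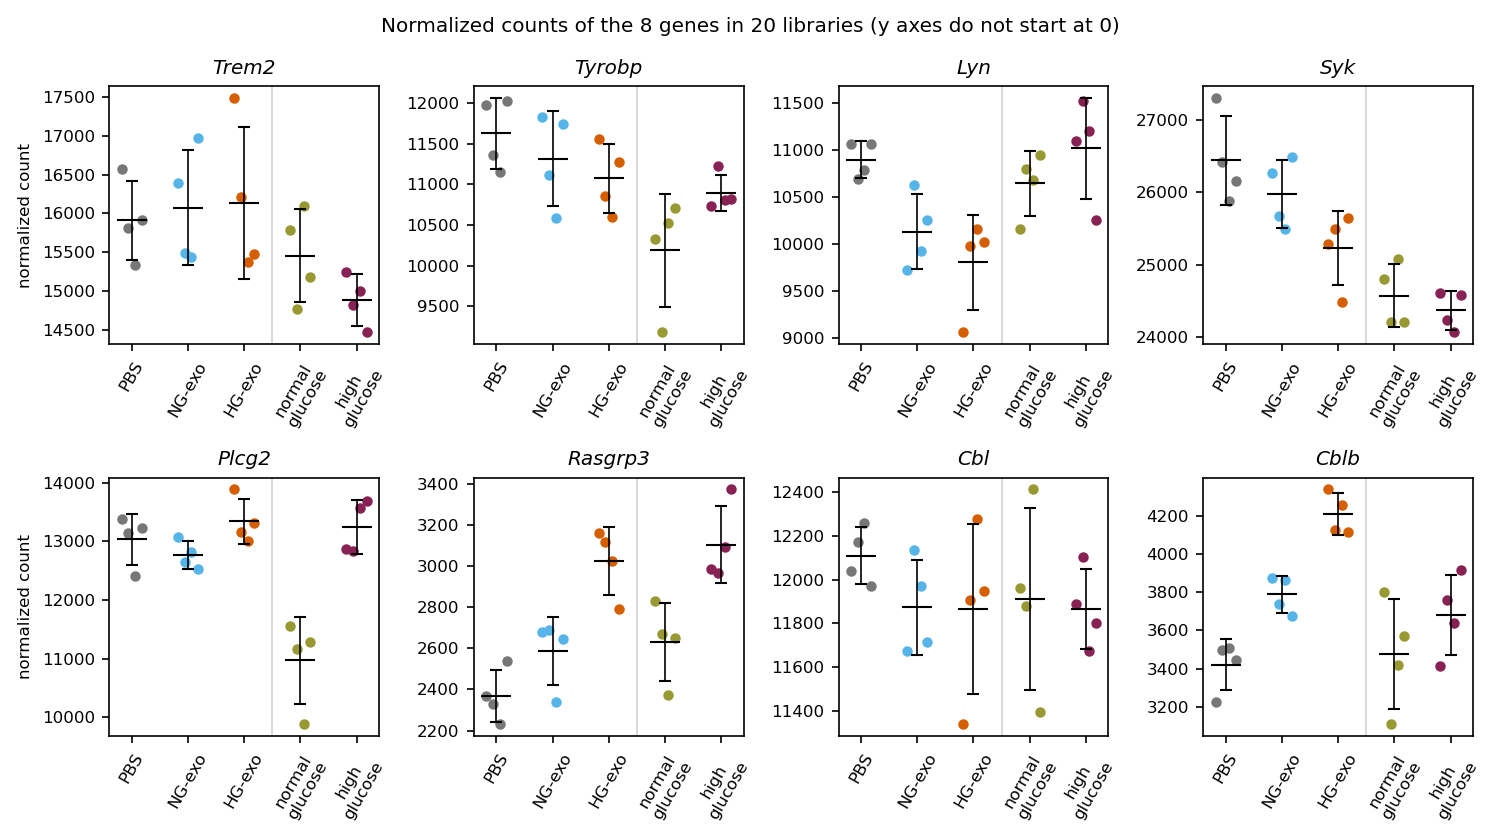
Normalized counts (y axis, not starting at 0) of the 8 genes in each of the 20 libraries, by group (x axis). Points are libraries, and black bars give the mean and SD of 4 libraries. Cblb and Rasgrp3 are highest in the BMDM–HG-exo libraries of the exosome experiment, and Plcg2 is lowest in the normal glucose libraries, none of which exceeds 11560.

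The upstream sequences of 6 of the 8 genes (8 windows, since Syk and Rasgrp3 have 2 starts each) were searched for the core letters bound by the myeloid factor PU.1 (GAGGAA, on both strands) in the 250 bases before the start of the RefSeq gene in GRCm38.p6. Tyrobp and Lyn had no entry. The letters occurred in 23.3% of all 32851 promoter windows of that length. Cblb and the first start of Rasgrp3 each had 2 matches, Cbl and Trem2 each had 1, the second start of Syk had 1, and Plcg2 had none. The 30 bases around the matches of the 2 genes that led to the choice are shown 5′ to 3′ on the strand of the gene, with the match in capitals. The first Cblb stretch is chr16:52031307-52031336 and the second is chr16:52031391-52031420. The Rasgrp3 stretches are chr17:75435745-75435774 and chr17:75435843-75435872, all on the plus strand. In 3 of these 4 the match reads TTCCTC, which is the same letters on the other strand. GENCODE M21 starts Cblb at 52031225, before both Cblb stretches, so in that annotation they lie inside the gene. The same holds for both Syk windows, since Syk starts there at 52583173. It also holds for the window of the second Rasgrp3 start, 75465288 to 75465537, since Rasgrp3 starts there at 75435896. A match describes the letters and is not evidence of binding.
Cblb, first match: ttttcagttcctTTCCTCgttccacttttg
Cblb, second match: gtggagtgggccTTCCTCtggggccattgt
Rasgrp3, first match: cctgcctcctctTTCCTCggtactcacagc
Rasgrp3, second match: gggaaagaatagGAGGAAgtgggcctgcca

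The glucose experiment asked how the cells that make the exosomes respond to glucose, and its 8 libraries are not part of the contrast on which the genes were chosen. Earlier results of these data were known when the set was chosen, so the test may not be wholly independent of the choice. Both effectors of the set, at the lower end of the cascade, rose in high glucose, Plcg2 by 20.9% and Rasgrp3 by 18.0%. The receptor, the adaptor, both kinases and both ligases did not pass the test. Of the 8 genes, 2 were therefore called, against 13.3% of all 14425 genes tested (limma on log2 of the normalized count plus 1, Benjamini-Hochberg adjusted p under 0.05), and a set of 8 is too small to set that count apart from the share of all genes. The libraries of the 2 groups did not overlap for 3 of the 8 genes, against 16.3% of all genes. The median log2 fold change of the 8 genes was 0.07, beside -0.003 over all genes tested.

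Plcg2 (ENSMUSG00000034330, chromosome 8, 117498291 to 117635142, plus strand), the phospholipase of the pathway, had 11560, 11159, 9889 and 11282 normalized counts in normal glucose against 12864, 12841, 13575 and 13694 in high glucose. The lowest library in high glucose was thus above the highest in normal glucose. The group means were 10972 ± 741 (SD, n = 4) and 13243 ± 454 (SD, n = 4), a log2 fold change of 0.27 (SE 0.041, 95% interval 0.19 to 0.36, limma adjusted p = 5.49e-06). It remained called in all 8 fits that left out 1 library. Upstream of its start, at chr8:117498025-117498274, the 250 bases held no PU.1 core but 1 match to the E-box CACGTG (the same letters on both strands, found in 6.02% of all promoter windows), shown in capitals because Plcg2 had the largest change of the 8 genes in this comparison.
Plcg2, upstream stretch: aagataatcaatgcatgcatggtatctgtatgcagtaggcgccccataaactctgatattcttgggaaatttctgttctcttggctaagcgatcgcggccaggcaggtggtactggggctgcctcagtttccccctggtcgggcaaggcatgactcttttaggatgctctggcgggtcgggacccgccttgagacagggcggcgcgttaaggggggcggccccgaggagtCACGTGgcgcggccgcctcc

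Rasgrp3 (ENSMUSG00000071042, chromosome 17, 75435896 to 75529054, plus strand), the diacylglycerol-dependent activator of Ras and Rap, had 2830, 2671, 2374 and 2651 normalized counts in normal glucose against 2985, 2966, 3092 and 3372 in high glucose. These groups too did not overlap. The means were 2631 ± 190 (SD, n = 4) and 3104 ± 187 (SD, n = 4), with a log2 fold change of 0.24 (SE 0.053, 95% interval 0.13 to 0.35, limma adjusted p = 0.00168), and the call held in all 8 fits that left out 1 library. A fit that left the variance free of the mean level ended both calls, with adjusted p = 0.0510 for Plcg2 (over its 19 alternatives, 9.87e-08 to 0.0510) and 0.101 for Rasgrp3 (0.000258 to 0.101). Rasgrp3 was called here, and its rise after BMDM–HG-exo had led to its choice. The stretch upstream of its first start, chr17:75435655-75435895, is therefore given with both PU.1 cores in capitals. It holds neither an E-box nor the AP-1 letters TGANTCA, which 6.75% of all windows hold.
Rasgrp3, upstream stretch: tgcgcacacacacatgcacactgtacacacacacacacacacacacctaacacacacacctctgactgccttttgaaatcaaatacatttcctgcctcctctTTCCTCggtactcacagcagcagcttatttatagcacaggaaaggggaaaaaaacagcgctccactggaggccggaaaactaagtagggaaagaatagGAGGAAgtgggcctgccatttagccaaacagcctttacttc

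Among the receptor components, Tyrobp (ENSMUSG00000030579, chromosome 7, 30413760 to 30417585, plus strand), the ITAM adaptor, had 10334, 9181, 10526 and 10714 normalized counts in normal glucose against 10734, 11221, 10802 and 10823 in high glucose. The groups did not overlap, though the highest normal glucose and the lowest high glucose library were close, and the log2 fold change of 0.10 (95% interval 0.02 to 0.18) did not pass the adjustment (limma adjusted p = 0.104). Trem2 (ENSMUSG00000023992, chromosome 17, 48346401 to 48354147, plus strand), the lipid-sensing receptor that signals through TYROBP, had 15790, 14761, 16091 and 15174 normalized counts in normal glucose against 15248, 14811, 15003 and 14462 in high glucose. Its groups overlapped, with a log2 fold change of -0.05 (95% interval -0.13 to 0.02, adjusted p = 0.354), although with quantile normalization it was called lower, at -0.12 (adjusted p = 0.0115, and 0.0115 to 0.680 over its 19 alternatives). Receptor and adaptor thus had changes of opposite sign, neither of them past the threshold.

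Of the kinases, Syk (ENSMUSG00000021457, chromosome 13, 52583173 to 52648792, plus strand) had the tightest values of the experiment, 24799, 24198, 25074 and 24210 normalized counts in normal glucose against 24602, 24226, 24060 and 24572 in high glucose. Its log2 fold change was -0.01 with a 95% interval of -0.08 to 0.05 (limma adjusted p = 0.862), so a change as large as that of Plcg2 lies outside the interval. Lyn (ENSMUSG00000042228, chromosome 4, 3678115 to 3813122, plus strand) had 10163, 10803, 10680 and 10951 normalized counts in normal glucose against 11098, 11522, 11202 and 10258 in high glucose. Of its 4 high glucose libraries 3 were above every normal glucose library, and the log2 fold change was 0.05 (95% interval -0.03 to 0.13, adjusted p = 0.461), turning to -0.01 with quantile normalization. A listed noncoding RNA, Gm26857, lies within the span of Lyn on the opposite strand. The counting was stranded.

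The ligases showed no change past the threshold. Cblb (ENSMUSG00000022637, chromosome 16, 52031225 to 52208048, plus strand) had 3800, 3111, 3419 and 3573 normalized counts in normal glucose against 3414, 3759, 3639 and 3913 in high glucose, with overlapping groups and a log2 fold change of 0.08 (95% interval -0.02 to 0.19, limma adjusted p = 0.325). Cbl (ENSMUSG00000034342, chromosome 9, 44142976 to 44234049, minus strand) had 11962, 11881, 12414 and 11396 normalized counts in normal glucose against 11888, 12105, 11673 and 11801 in high glucose. Its log2 fold change was -0.01 (95% interval -0.08 to 0.07, adjusted p = 0.953), the smallest change of the 8 genes. Markers moved with the groups: the summed level of the 9 macrophage markers was 644513 to 718799 normalized counts in normal glucose and 824974 to 895522 in high glucose, a sum that is mostly Lyz2 (median 570203). Of the 9, 5 were called higher (Lyz2, Csf1r, Cd14, Spi1 and Adgre1), 2 lower (Mertk at -0.40 and Cd68 at -0.15 on the log2 scale) and 2 not at all. The sum of the 3 listed osteoclast markers was 281 to 314 normalized counts in normal glucose and 351 to 382 in high glucose. Of these only Ctsk was called, higher by 0.93 on the log2 scale, and Acp5 (0.13) and Dcstamp (-0.13) were not. The neutrophil, dendritic cell, B cell and stromal sums overlapped between the groups. The part of these markers in the changes of Plcg2 and Rasgrp3 was not tested. In bulk RNA a change in the number of cells of one kind cannot be told apart from a change in RNA per cell.

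**Figure D2:**
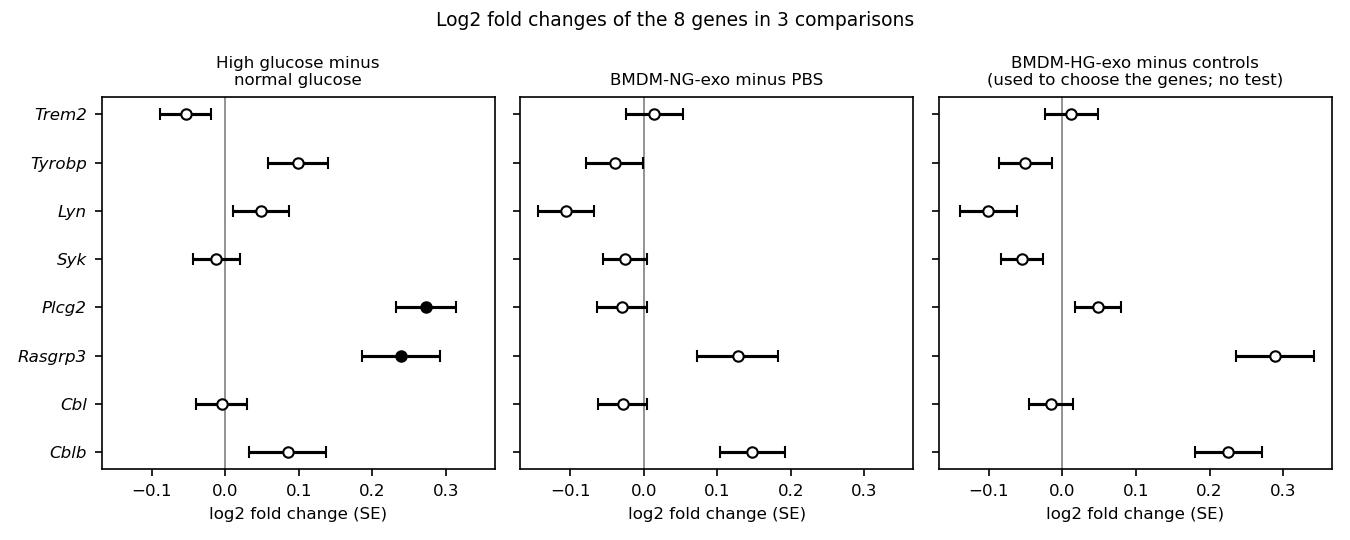
Log2 fold changes (x axis, with SE bars) of the 8 genes (y axis) in 3 comparisons, each of 4 libraries against 4 or, for the controls, 8. Filled points were called. Plcg2 (0.27) and Rasgrp3 (0.24) are the filled points of the glucose comparison, and the third panel, in which Rasgrp3 (0.29) and Cblb (0.23) lie farthest from 0, is a description because the genes were chosen on it.

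The exosome experiment asked what exosomes of either source do to naive BMDM. BMDM–NG-exo and PBS are both controls of the study, and the contrast between them tells how far exosomes from cells in normal glucose moved the 8 genes. None of the 8 genes was called (limma adjusted p under 0.05, with a log2 fold change no smaller than 0.15 in either direction), while of all 14413 genes tested 0.888% were called higher and 2.11% lower. At an unadjusted p under 0.05 there were 3 (Cblb, Rasgrp3 and Lyn), beside 13.5% of all genes, and edgeR's quasi-likelihood test and DESeq2 on the recovered reads called 0 each. The groups did not overlap for 2 of the 8 genes, Cblb and Lyn, against 8.27% of all genes. The median log2 fold change of the 8 genes was -0.03, beside 0.005 over all genes.

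Cblb, the ligase, had 3227, 3500, 3510 and 3447 normalized counts after PBS and 3872, 3737, 3865 and 3677 after BMDM–NG-exo. Every BMDM–NG-exo library was above every PBS library. The means were 3421 ± 132 (SD, n = 4) and 3788 ± 97 (SD, n = 4), a log2 fold change of 0.147 (SE 0.044, 95% interval 0.06 to 0.24). Cblb just missed both thresholds, with the fold change under 0.15 and the adjusted p above 0.05 (limma adjusted p = 0.0549, 0.00934 to 0.230 over its 23 alternatives). With the label date as a block its adjusted p was 0.0369, but the fold change stayed under the minimum and Cblb was still not called. The alternative with the lowest adjusted p did not call Cblb for the same reason. With quantile normalization the log2 fold change was 0.16 and Cblb was called (adjusted p = 0.0341). Without PBS library 1, which stood apart in its genes at 0 and had the lowest Cblb of the group, the log2 fold change was 0.12 (adjusted p = 0.230).

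Rasgrp3 had 2367, 2331, 2232 and 2536 normalized counts after PBS and 2677, 2687, 2338 and 2644 after BMDM–NG-exo. The groups overlapped through BMDM–NG-exo library 3, and the log2 fold change was 0.13 (95% interval 0.02 to 0.24, limma adjusted p = 0.273). Lyn had 11064, 10691, 10789 and 11066 normalized counts after PBS and 9727, 10632, 9928 and 10257 after BMDM–NG-exo. All 4 BMDM–NG-exo libraries were lower, with a log2 fold change of -0.11 (95% interval -0.18 to -0.03, adjusted p = 0.149).

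The remaining 5 genes had log2 fold changes between -0.04 and 0.01, and their groups overlapped. Tyrobp had 11969, 11366, 11146 and 12024 normalized counts after PBS and 11823, 11114, 10582 and 11744 after BMDM–NG-exo, a log2 fold change of -0.04 (95% interval -0.12 to 0.04, limma adjusted p = 0.738). Plcg2 had 13382, 13149, 12402 and 13220 normalized counts after PBS and 13073, 12655, 12812 and 12529 after BMDM–NG-exo, with an interval of -0.10 to 0.04. The intervals of these genes leave out a change of the size seen for Plcg2 in the glucose experiment. Those of Cbl (-0.10 to 0.04), Syk (-0.09 to 0.04) and Trem2 (-0.06 to 0.09) are as narrow.

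BMDM–HG-exo were then set against both controls together, the comparison of the study and the one on which the genes were chosen. Its values for the 8 genes are a description, with no test. The log2 fold changes were 0.29 (SE 0.053) for Rasgrp3 and 0.23 (SE 0.045) for Cblb, so that these libraries were on average 22.2% and 16.9% higher than the controls. For both genes every BMDM–HG-exo library was above all 8 controls. Without PBS library 1 the values were 0.28 for Rasgrp3 and 0.20 for Cblb. In this comparison 0.201% of the 14413 genes tested were called and 1.17% had groups that did not overlap. The other 6 genes had log2 fold changes between -0.10 (Lyn) and 0.05 (Plcg2), and the median of all 8 was -0.002.

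Cblb had 4337, 4124, 4255 and 4114 normalized counts after BMDM–HG-exo, a mean of 4207 ± 108 (SD, n = 4). The lowest of these stood above the highest BMDM–NG-exo library, which had 3872. Against PBS the log2 fold change was 0.30 (SE 0.044) and against BMDM–NG-exo 0.15 (SE 0.044). Libraries of the 3 groups that carry the same date in their labels could be compared in pairs, on 4 dates. Since the Cblb groups did not overlap, any pairing gives the same direction, and the pairs tell only the size. By date, Cblb was higher after BMDM–HG-exo than after BMDM–NG-exo by 0.14 to 0.16 on the log2 scale. It was higher after BMDM–NG-exo than after PBS by 0.09 to 0.26.

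Rasgrp3 had 3159, 3116, 3024 and 2791 normalized counts after BMDM–HG-exo, a mean of 3022 ± 164 (SD, n = 4). The lowest of these was above the highest BMDM–NG-exo library (2687), so that the level went up from PBS to BMDM–NG-exo, with overlap, and from there to BMDM–HG-exo, without. Against PBS the log2 fold change was 0.35 (SE 0.055) and against BMDM–NG-exo 0.23 (SE 0.055). The date-matched differences from BMDM–NG-exo ranged more widely than those of Cblb, from 0.08 to 0.37. Without overlap between these groups, they are above 0 under any pairing. The 2 comparisons share the BMDM–HG-exo libraries, and their values are not independent of each other.

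**Figure D3:**
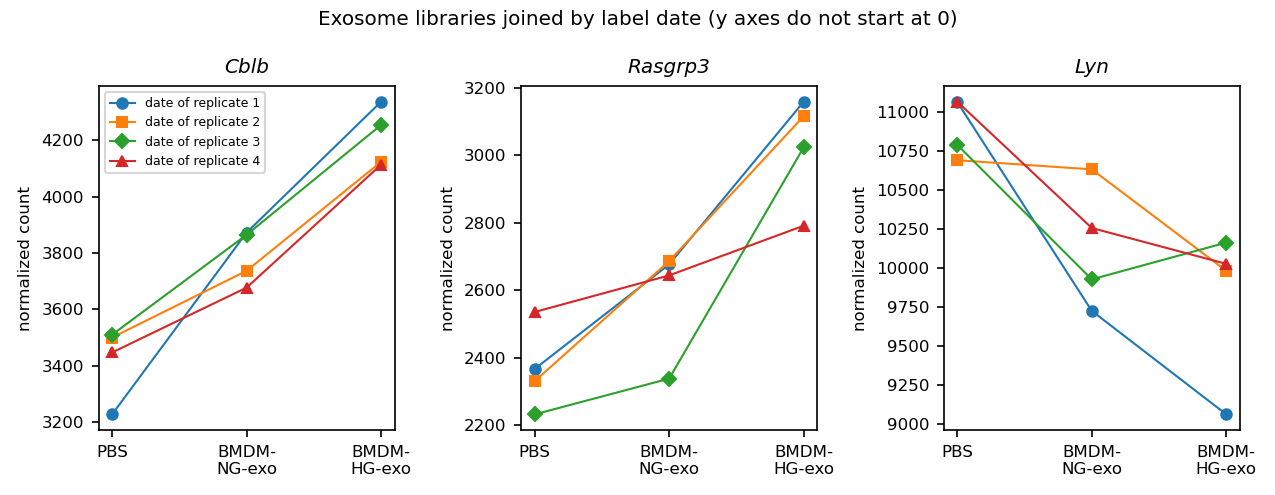
Normalized counts (y axis, not starting at 0) of Cblb, Rasgrp3 and Lyn in the 12 exosome libraries, with lines joining the libraries of the same label date across the 3 groups (x axis). Cblb and Rasgrp3 go up along every line, and Lyn is lower after either kind of exosome than after PBS on all 4 dates. Between groups that do not overlap, the lines have the same direction under any pairing.

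Lyn had 9064, 9983, 10164 and 10027 normalized counts after BMDM–HG-exo, all below the 4 PBS libraries but overlapping those of BMDM–NG-exo. Its log2 fold change was -0.15 (SE 0.038) against PBS and -0.05 (SE 0.038) against BMDM–NG-exo, so most of the distance from PBS was there with either kind of exosome. Syk had 25292, 25492, 24488 and 25645 normalized counts, against 27313, 26424, 25882 and 26164 after PBS and 26265, 25672, 25492 and 26488 after BMDM–NG-exo. These libraries too were all below those of PBS (log2 fold change -0.07, SE 0.030) and overlapped BMDM–NG-exo.

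Plcg2 had 13889, 13154, 13005 and 13315 normalized counts after BMDM–HG-exo, overlapping both controls. Tyrobp had 11562, 10853, 10602 and 11275 and overlapped them too. Trem2 had 17494, 16208, 15366 and 15481 normalized counts after BMDM–HG-exo, 16567, 15814, 15333 and 15918 after PBS and 16394, 15482, 15441 and 16969 after BMDM–NG-exo, with no group apart from the others. Cbl had 11340, 11906, 12276 and 11951 normalized counts after BMDM–HG-exo, 12039, 12174, 12261 and 11970 after PBS and 11676, 12135, 11972 and 11715 after BMDM–NG-exo. Cbl overlapped both controls. The summed macrophage markers were 813267 to 860365 normalized counts after PBS, 735217 to 793087 after BMDM–NG-exo and 752958 to 778677 after BMDM–HG-exo, so the sums set PBS apart from both exosome groups. After BMDM–NG-exo 4 of the 9 were called lower than after PBS and 5 were not called, and their part in the values of Lyn and Syk was not tested.

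The rest of the pathway was followed with 125 further genes in 4 lists written by function: adaptors and activating receptors, kinases and scaffolds, second messenger and Ras effectors, and brakes. The lists were written with earlier results of these data known, so their shares of called genes are a description. The share of all genes given beside them was not matched for level. Of the 125 genes, 114 were listed in the table and tested. In high glucose 28 rose and 11 fell, which is 34.2% of the 114, beside 13.3% of all genes tested (1116 higher and 798 lower of 14425), and 75 did not pass. The counts of the single lists are to be read beside the same share. With quantile normalization the split was 22 higher and 19 lower, and without the variance trend 17 genes were called, all of them among the 39.

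In high glucose 9 of the 19 adaptors and activating receptors rose and 2 fell. Csf1r, the receptor for M-CSF and also 1 of the 9 macrophage markers, had a mean of 92030 ± 3798 normalized counts in normal glucose and 117243 ± 2463 in high glucose (SD, n = 4 each), a log2 fold change of 0.35 (limma adjusted p = 5.63e-10). The C-type lectin receptors Clec4d and Clec4e, which sense microbial and damaged-cell glycolipids through an ITAM adaptor, rose by 0.43 (adjusted p = 1.62e-10) and 0.54 (adjusted p = 2.68e-07) on the log2 scale. Fcer1g, the adaptor of many of these receptors and the counterpart of Tyrobp, rose by 0.14 (adjusted p = 0.00643), a gene named after its value was seen.

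Of the 29 kinases and scaffolds 6 rose and 1 fell. Among them the scaffold Fyb rose by 0.20 on the log2 scale (limma adjusted p = 6.27e-05) and the calcium-responsive kinase Ptk2b by 0.15 (adjusted p = 0.00270). Of the 35 second messenger and Ras effectors, 7 rose and 3 fell. Plcg1, of the same gene family as Plcg2, was called lower, with a log2 fold change of -0.26 (adjusted p = 0.0139). Rasgrp2 and Rasgrp4, of the family of Rasgrp3, were not called. These genes were named after their values were seen. Of the diacylglycerol-dependent protein kinases, Prkcb and Prkcd rose by 0.30 (adjusted p = 1.68e-07) and 0.24 (adjusted p = 3.12e-06), while Prkca, named after its value was seen, fell by 0.92 (adjusted p = 0.0234), from a mean of 88.3 to 45.5 normalized counts. Itpr1, a receptor for inositol trisphosphate on calcium stores, rose by 0.34 (adjusted p = 3.50e-06).

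The brakes split, with 6 of 31 higher and 5 lower in high glucose. Cd33, a sialic acid receptor that the list counts as a brake, fell from 1494 ± 126 to 860 ± 71 normalized counts (SD, n = 4 each). Its log2 fold change was -0.80 (limma adjusted p = 1.97e-10). Fcgr2b, the inhibitory receptor for IgG, fell by 0.57 on the log2 scale (adjusted p = 3.18e-09). Ptpn6, the phosphatase SHP-1 that inhibitory receptors recruit, rose by 0.27 (adjusted p = 7.01e-07). Cblb and Cbl, the brakes of the main set, changed in neither direction past the threshold, as described.

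**Figure D4:**
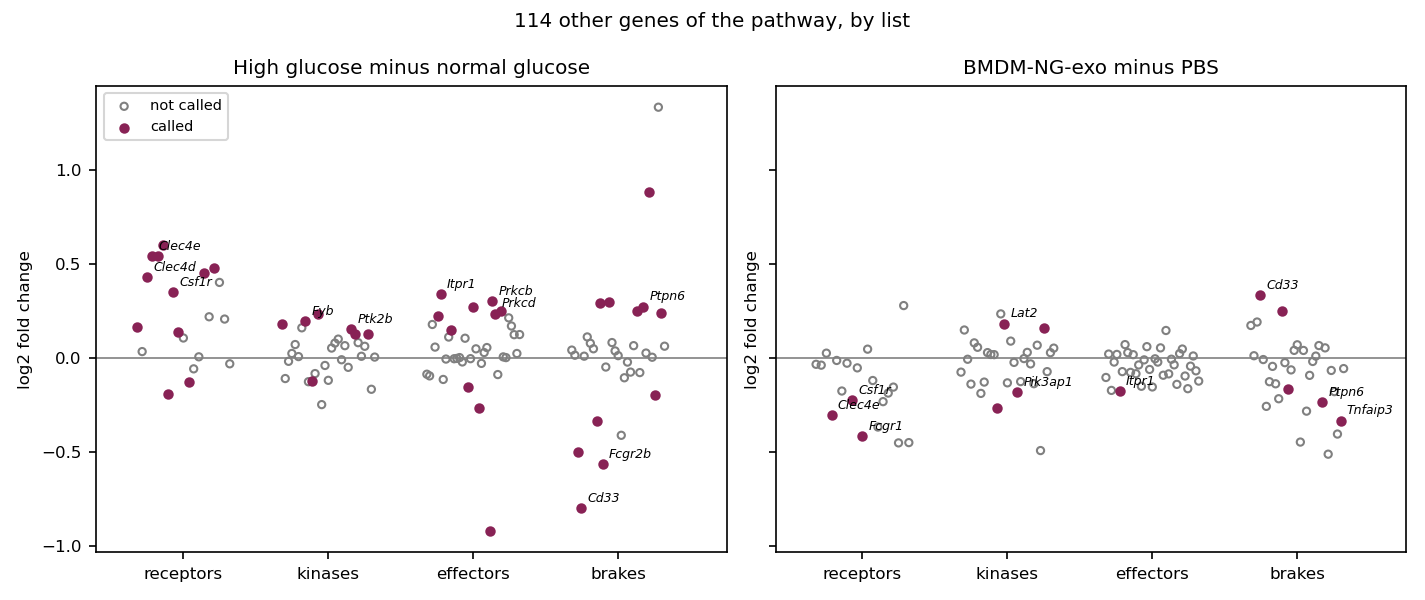
Log2 fold changes (y axis) of the 114 other pathway genes in 4 lists (x axis), in high against normal glucose and in BMDM–NG-exo against PBS. Filled points were called, and names mark called genes described in the text. In glucose 28 filled points lie above 0 and 11 below, and after BMDM–NG-exo 4 lie above and 9 below.

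After BMDM–NG-exo 4 of the 114 genes rose and 9 fell against PBS, which is 11.4%, while of all genes tested 0.888% were called higher and 2.11% lower, and without the variance trend 2 were called. All 3 called genes of the adaptor and receptor list fell: Fcgr1, the high-affinity receptor for IgG, changed by -0.41 on the log2 scale (limma adjusted p = 5.10e-07), Csf1r -0.22 (adjusted p = 2.50e-05) and Clec4e -0.30 (adjusted p = 0.0103). Among the kinases and scaffolds Pik3ap1 (-0.18, adjusted p = 0.00104) fell, and the membrane scaffold Lat2 rose by 0.18 (adjusted p = 0.00722). Itpr1, at -0.17 (adjusted p = 0.0482), was the single effector called. Of the brakes Ptpn6 (-0.23, adjusted p = 0.000922) and Tnfaip3 (-0.33, adjusted p = 0.00741) fell and Cd33 rose by 0.34 (adjusted p = 0.00285).

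In BMDM–HG-exo against both controls 1 of the 114 genes was called, Fcgr1, with a log2 fold change of -0.39 (limma adjusted p = 0.0392, 1.25e-07 to 0.400 over its 23 alternatives, of which 11 called it). Fcgr1 had 5135, 5030, 4892 and 4989 normalized counts after PBS, 3661, 4166, 3652 and 3595 after BMDM–NG-exo and 3205, 3097, 3372 and 3567 after BMDM–HG-exo. The controls were thus far apart from each other, and the step from PBS to BMDM–NG-exo was larger than the one to BMDM–HG-exo. With the label date as a block its adjusted p was 0.0780 and 0 genes were called. Leaving out any of the 4 PBS libraries or BMDM–HG-exo library 1, 2 or 3 ended the call, and 5 genes were called without BMDM–NG-exo library 3. None of the 29 kinases and scaffolds, 35 effectors and 31 brakes was called by limma. At an unadjusted limma p under 0.05 there were 7, 4 and 10, beside 1511 of all 14413 genes tested. edgeR called 0 of the kinases and scaffolds, effectors and brakes. DESeq2 called 1 kinase or scaffold, 0 effectors and 1 brake.

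The genes with the pattern most like that of each member were sought among 11564 genes with a mean of at least 50, by the smaller of 2 Pearson correlations, over the 12 exosome and the 8 glucose libraries. The libraries of a group share its treatment, and these values describe likeness alone. For Rasgrp3 they were the heat shock protein gene Hsph1 (0.92 and 0.91), Spp1, which encodes osteopontin (0.93 and 0.89), and Creg1 (0.85 and 0.85). For Cblb they included Vps8 (0.92 and 0.89) and Galnt6 (0.84 and 0.86), neither of which was among those of Rasgrp3. The likest genes of the others were Ampd3 for Plcg2, Themis2 for Syk, Hsp90b1 for Lyn, Ogg1 for Cbl, Slc45a4 for Trem2 and the small nuclear RNA gene Rn7sk for Tyrobp, with smaller values from 0.78 to 0.90. Between the 8 genes themselves, 7 of the 28 pairs had positive correlations in both experiments, 9 negative in both and 12 opposite signs, so they did not vary as 1 block.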

How the data were processed

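Long RNA of 20 mouse BMDM libraries was measured in 5 groups of 4, as the sample labels give them. The authors removed 3 bases from the start of read 2, aligned with STAR to GRCm38, counted sense-strand reads by gene with FeatureCounts, and scaled each library by a size factor (the median ratio of DESeq2). The deposited signal is thus a normalized count. In each of the 20 columns the values were whole multiples of 1 step, and 100% came out whole within 0.05 reads. The columns of PBS 4 and BMDM–HG-exo 1 have a step near 1 (0.992 and 1.006). Their values are not whole numbers (11969.73 for Cbl in PBS 4, 4337.29 for Cblb in BMDM–HG-exo 1), so they were scaled too. Recovered reads gave totals and served edgeR and DESeq2. Libraries of a group differed by a chi-square per degree of freedom of 5.20 to 41.9 (30 pairs), so none was a copy.

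Tests used limma 3.58.1 (R 4.3.3; lmFit, trended eBayes) on log2(normalized count + 1). They were two-sided, with Benjamini-Hochberg adjustment over all genes averaging 10 or more. The 8 glucose libraries made 1 fit, the 12 exosome libraries another with 3 groups, and BMDM–HG-exo against the 8 controls the last. Calls needed an adjusted p below 0.05 and, for exosomes, a log2 change of 0.15 or more either way. The members and lists were chosen with earlier results of these data known. Named are the 8 members, the 3 called genes of smallest adjusted p per list and comparison, and the likest genes, of which 2 are not reported here. Fcer1g, Prkca, Plcg1, Rasgrp2, Rasgrp4 and Inppl1 were named after their values were seen. GENCODE M21 had an entry for 14421 genes and gave names and coordinates. Of the 125 list genes, 11 are not listed in the table. Promoters came from RefSeq (GRCm38.p6).

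Label dates pair the exosome libraries. Deviations on the same date had a mean correlation of 0.012 (12 pairs, -0.018 to 0.056), and on different dates -0.004. Alternatives varied the pseudocount (0.1, 5), filter (none, 50), scaling (TMM, quantiles), trend and libraries fitted, and used edgeR 4.0.16, DESeq2 1.42.0, the date block and each library left out. The fits were tested on simulated data. Tables and figures used Python 3.11.15, pandas 2.3.3 and matplotlib 3.10.9.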

Additional observations from a re-analysis of the deposited data

Results flagged for a closer look

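In 40 groups of 4 libraries (8 genes in 5 groups), 2 had a library far from the other 3 by Dixon's ratio of gap to range at the 95% level. Chance alone gives about 1 in 20 groups. Rasgrp3 in BMDM–NG-exo library 3 had 2338 normalized counts, against 2644 to 2687 in the other 3 (ratio 0.878), and this library is the one through which the BMDM–NG-exo and PBS groups overlap. Lyn in BMDM–HG-exo library 1 had 9064 normalized counts, against 9983 to 10164 in the other 3 (ratio 0.835). The same library had the lowest mitochondrial share of the 20, 7.45% of its reads. Without it, or without any other single library of the exosome experiment, the log2 fold change of Lyn in BMDM–HG-exo against the controls was between -0.12 and -0.06.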

How the results depend on the processing

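Of the 8 members, 2 were called in high against normal glucose in 8 of 8 fits leaving out 1 library (2 to 2) and in 8 of the other 11 alternatives. There were 3 with quantile normalization (Trem2 added), 0 without the variance trend and 1 with the replicate block. That block could use only numbers 1 and 6, which share no stated origin (correlation 0.007 over 2 pairs), and it gave Rasgrp3 an adjusted p of 0.0586 and Plcg2 0.00506. It turned Cblb to -0.012, Cbl to 0.021 and Syk to 0.0050, and quantile normalization turned Lyn to -0.0099. Leaving out 1 library moved Cbl between -0.026 and 0.015. After BMDM–NG-exo, no member was called when 1 library was left out (0 to 0), and 1, Cblb, with quantile normalization, which turned Plcg2 to 0.0022. Leaving out 1 library moved Trem2 between -0.012 and 0.034. Pathway genes called in glucose were 17 without the trend, 22 with the replicate block and 28 to 39 with 1 library left out. After BMDM–NG-exo they were 2 without the trend, 15 with the date block and 9 to 14 with 1 library left out. In BMDM–HG-exo against the controls they were 0 with pseudocount 0.1, quantile normalization, no trend or the date block, 8 in 1 fit over all 20 libraries, 2 with DESeq2 and 0 to 5 with 1 library left out. The causes were not tested. The date block changed no call of a member. The 16 alternatives of each untested BMDM–HG-exo value moved it by less than 1 SD, although leaving out 1 library turned Trem2 (0.012, down to -0.027) and Cbl (-0.015, up to 0.0062), and quantile normalization turned Cbl (0.00091).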

Other observations

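Pathway genes called in both high against normal glucose and BMDM–NG-exo against PBS, 2 comparisons that share no library, were counted after their values were seen. There were 9 such genes, which is 23.1% of the 39 glucose calls and 69.2% of the 13 BMDM–NG-exo calls, and all 9 had opposite signs. Among them Csf1r, Clec4e, Itpr1, Ptpn6, Tnfaip3 and Inppl1 were higher in high glucose and lower after BMDM–NG-exo, and Cd33 and Fcgr2b were the other way round. The pattern was not particular to the pathway, since 236 of all 250 genes called in both comparisons (94.4%) had opposite signs. None of the 8 members was among them. The reason for the opposite signs was not tested.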
